A study of Mus musculus with 4 samples.

Results

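Ephrins and their Eph receptors, semaphorins and their plexin receptors, Slits and their Robo receptors, and netrins with their Unc5 receptors were examined in mouse lung endothelial cells (ECs) 7 days after unilateral pneumonectomy (PNX). The genes were chosen by symbol alone, as those beginning with Sema, Plxn, Efna, Efnb, Epha, Ephb, Slit, Robo, Ntn and a digit, or Unc5, leaving out Efnb2 and Ephb4. For each symbol the transcript with the most reads over all libraries was taken. This gave 66 genes of 24063 symbols. Plxna4os1, a non-coding antisense RNA of Plxna4, and Unc5cl, a death domain protein named for its resemblance to Unc5c and not known as a netrin receptor, entered through their names only.

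The ECs came from C57BL6 mice (C57BL6J in the study's methods) aged 8 weeks and were isolated from whole lung with magnetic beads that carry an antibody to CD31, an adhesion molecule of the endothelial surface. In the PNX group the left lung had been removed 7 days earlier and the remaining lung was growing. The other group was sham-operated. Each group had 2 libraries, and per the study's methods each library was a pool of cells from 2 mice, so p-values measure the spread between pools. The design answers which genes differ between post-PNX and sham-operated mice in the isolated CD31 fraction, called ECs here. A difference in that fraction need not lie in the ECs themselves.

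Guidance molecules were first described as cues that steer growing axons, and blood vessels use the same families when they sprout, branch and settle into arteries and veins. Ephrins are bound to the cell surface and signal to Eph receptor kinases on the neighbouring cell. Semaphorins act through plexins, and secreted class 3 members mostly need a neuropilin as coreceptor. Slits are secreted and bind Robo receptors, while netrins are secreted into the matrix and bind Unc5 receptors, Dcc or neogenin. In the endothelium, Robo4, Unc5b and plexin-D1 are the best-known receptors of their families.

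Sequencing was deep, with 41367438 to 50952879 counted read pairs per library over 1 transcript per gene, and the 66 genes took 0.593 to 0.600% of them. The mice are labelled male, but 0 of 46 Y-chromosomal genes had a count in any library and Xist, the RNA of the inactive X chromosome, had 29890 to 36875 counts. This held for both groups alike. Endothelial markers were abundant, with 109837 and 110681 normalized counts of Cdh5 (VE-cadherin) in the sham-operated ECs. Their sum over 12 genes ran from 549153 to 555009 in the sham-operated and from 463312 to 465353 in the post-PNX libraries, and 9 of 12 were lower after PNX. The RNA also held other cells: the fibroblast list had 63807 to 64389 counts in the sham-operated and 227148 to 228763 in the post-PNX libraries, and 6 of its 8 genes were higher. All 8 measured macrophage and monocyte genes, all 7 mesothelial genes, 7 of 8 smooth muscle and pericyte genes and all 7 cell division genes were also higher, while all genes of the type 1 and type 2 alveolar, airway, T cell and B cell lists were lower. The type 2 alveolar list had 313465 to 314959 counts in the sham-operated and 204846 to 206221 in the post-PNX libraries. The airway list had 177260 to 178288 and 86592 to 89379. In sham-operated libraries the means of Sftpc (171015, type 2 alveolar), Scgb1a1 (145756, airway) and Lyz2 (144686, macrophage and monocyte) exceeded every endothelial marker. Levels given below are thus those of the whole isolated fraction. No fibroblast or mesothelial marker was at 0 in either group. In bulk RNA of this kind, fewer cells of a type and less RNA per cell cannot be told apart.

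Of the 66 genes, 61 had enough reads to be tested with edgeR's quasi-likelihood F test, in which p-values were Benjamini-Hochberg adjusted over all 16208 genes tested. The other 5 were Epha5, Epha6, Epha8, Epha10 and Slit1, with 0 to 8 counts in any library, and Epha6 had 0 in all 4. A count of 0 allows up to 0.0589 to 0.0725 CPM (counts scaled to library size), a limit that covers counting error only. At an adjusted p under 0.01, 26 of the 61 genes (42.6%) were higher and 19 (31.1%) were lower after PNX. Among all genes tested, 29.3% were higher and 27.8% lower, so 73.8% of the family genes and 57.1% of all genes passed in either direction. Counts within single families, given below, cover few genes and are to be read beside these shares. Small differences pass more easily where reads are many, and 35 of the 61 genes had a mean above 1000 normalized counts. In that range 45.7% of the family genes were higher and 42.9% lower, against 33.0% and 36.7% of all genes. The groups did not overlap for 30 genes with post-PNX values above (49.2%, against 40.8% of all genes) and 25 below (41.0%, against 40.5%).

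Most of the differences were small. Beyond 2-fold, Ephb2, Efna5, Ephb1 and Efna4 were higher (4 genes, 6.56%, against 5.90% of all genes) and Unc5cl was lower (1 gene, 1.64%, against 1.66%), shares near those of all genes, of which 7.56% passed in either direction. All 5 were weakly expressed, with 447 normalized counts or fewer in every library. None of the 35 genes above 1000 counts passed 2-fold. The median log2 fold change over the 61 genes was 0.11, against 0.00 over all genes, and the median standard deviation (SD) within a group on the log2 scale was 0.025, against 0.036. When libraries were scaled to the 12 endothelial genes instead of all genes, the median of all genes moved to 0.21 and that of the 61 genes to 0.32. Higher genes were then 78.3% of those called, in place of 57.8%, with 36 higher and 10 lower.

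**Figure D1:**
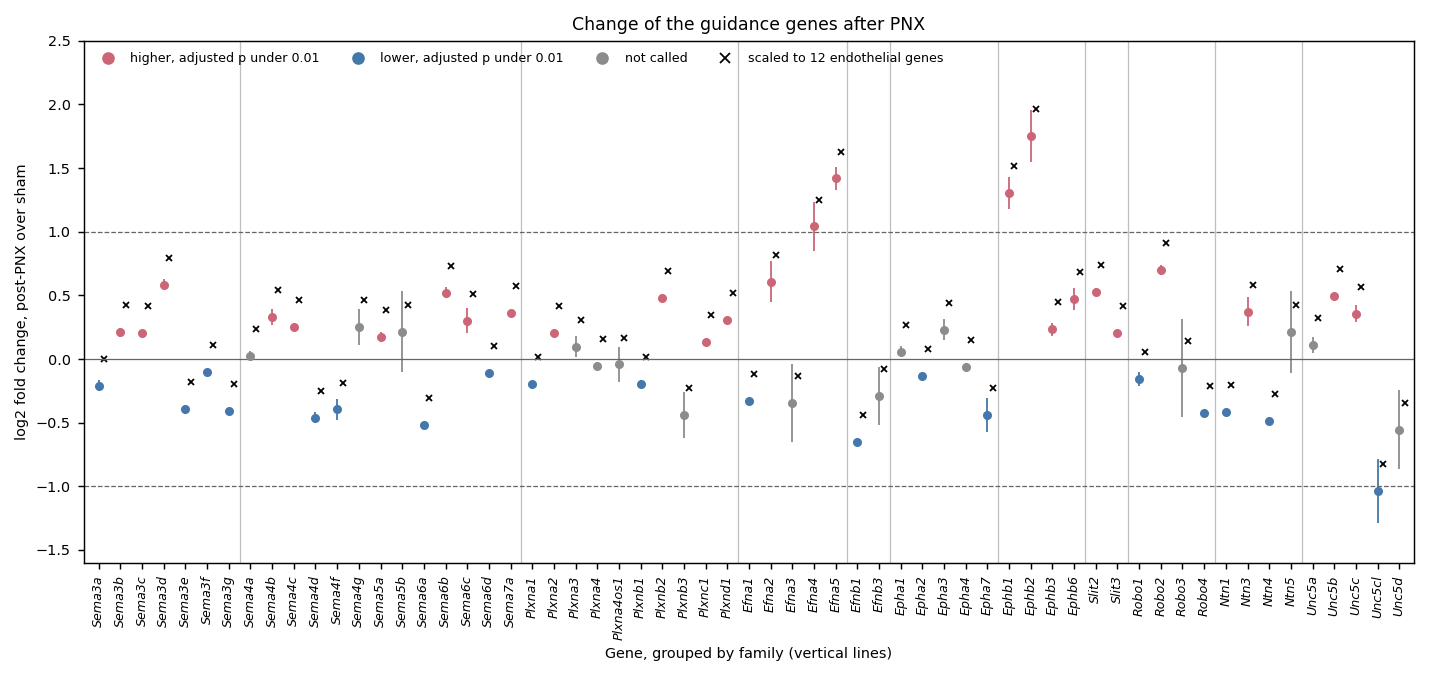
Log2 fold change of the 61 tested genes, post-PNX against sham-operated ECs, with the standard error as bars, grouped by family. Red points were higher and blue points lower at an adjusted p under 0.01, grey points did not pass, crosses give the value after scaling to 12 endothelial genes, and dashed lines mark 2-fold. Ephb2, Efna5, Ephb1 and Efna4 lie above the upper line and Unc5cl below the lower one.

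The Eph and ephrin families held all 4 of the genes that rose beyond 2-fold. Their members moved apart: the 4 EphB receptors other than Ephb4 and 3 of 5 ephrin-A ligands rose, while the abundant ligands Efnb1 and Efna1 fell. Ephb4, the most abundant EphB receptor and left out by the choice of symbols, was lower by a small margin (log2 -0.15, edgeR adjusted p = 8.79e-10) that changed sign with endothelial scaling (0.06, adjusted p = 0.0159). The 250 bases upstream of the start of the 4 genes that rose beyond 2-fold are shown with those of Efnb1, the ligand with the deepest fall, so that genes moving in opposite directions can be compared. They were taken from RefSeq on GRCm38.p6, the mm10 build, and read 5′ to 3′ on the strand of the gene: Ephb2 at chr4:136836013-136836262 on the minus strand, Efna5 at chr17:62881318-62881567 on the minus strand, Ephb1 at chr9:102354694-102354943 on the minus strand, Efna4 at chr3:89338029-89338278 on the minus strand and Efnb1 at chrX:99135811-99136060 on the plus strand. The start used for Ephb2 lies inside the longer RefSeq gene span whose coordinates are given with its counts, so that this window falls within that span. Capitals mark a match to an E-box, CANNTG, or to the TEAD motif, GGAATG, the DNA element of the partners of YAP1.
Ephb2: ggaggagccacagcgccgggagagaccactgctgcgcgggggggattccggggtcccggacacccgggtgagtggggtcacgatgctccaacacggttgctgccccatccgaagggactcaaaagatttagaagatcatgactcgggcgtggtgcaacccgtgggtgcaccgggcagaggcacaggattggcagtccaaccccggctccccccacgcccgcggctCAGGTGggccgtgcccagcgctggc
Efna5: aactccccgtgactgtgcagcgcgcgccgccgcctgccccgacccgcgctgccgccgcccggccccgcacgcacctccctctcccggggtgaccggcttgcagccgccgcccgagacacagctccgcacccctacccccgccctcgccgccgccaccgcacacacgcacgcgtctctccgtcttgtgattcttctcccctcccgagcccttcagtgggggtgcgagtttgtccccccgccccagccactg
Ephb1: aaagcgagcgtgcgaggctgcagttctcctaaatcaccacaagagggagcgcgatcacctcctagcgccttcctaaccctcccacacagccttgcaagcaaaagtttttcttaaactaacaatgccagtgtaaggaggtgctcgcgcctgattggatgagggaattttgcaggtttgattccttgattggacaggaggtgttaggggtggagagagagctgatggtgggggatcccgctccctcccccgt
Efna4: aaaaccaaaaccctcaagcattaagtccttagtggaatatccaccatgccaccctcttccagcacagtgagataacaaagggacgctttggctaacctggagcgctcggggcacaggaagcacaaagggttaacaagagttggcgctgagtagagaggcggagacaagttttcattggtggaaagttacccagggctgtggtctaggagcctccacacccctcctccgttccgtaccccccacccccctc
Efnb1: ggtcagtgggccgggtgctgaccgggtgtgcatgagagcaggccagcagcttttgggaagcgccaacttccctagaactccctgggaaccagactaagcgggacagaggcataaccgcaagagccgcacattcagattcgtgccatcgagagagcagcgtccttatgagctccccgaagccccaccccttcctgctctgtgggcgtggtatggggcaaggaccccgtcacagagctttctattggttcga

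The E-box was found once, in Ephb2, and the TEAD motif in none of the 5. Over 32851 mouse promoters of the same length, searched on both strands, 66.2% held an E-box and 12.6% a TEAD motif. Of the 66 genes, 56 had an entry with 72 starts, and 9.72% of these starts held a TEAD motif. The letters say only what lies in these windows. Efna5 had 74.8% G and C bases and 32 CpG sites, and Ephb2 had 68.4% and 20, against medians of 52.4% and 6 over all promoters. The median over the 72 starts of the family genes was 64.2%, and Ephb1 and Efna4 had 54.0% and 54.4%.

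Ephb2 (chromosome 4, 136647536 to 136836326), a receptor for B-type ephrins, had the largest rise. It had 31.7 and 32.6 normalized counts in the sham-operated ECs and 122 and 93.6 in the post-PNX ECs. The fold was 3.37 (log2 1.75, standard error (SE) 0.20, n = 2 per group, edgeR adjusted p = 2.11e-11). Both post-PNX libraries lay far above both sham-operated ones, although they differed from each other more than the sham-operated pair did. Ephb1 (chromosome 9, 101922128 to 102354693), a second receptor of this class, had 99.7 and 93.8 counts against 248 and 230, a fold of 2.47 (log2 1.30, SE 0.12, edgeR adjusted p = 3.88e-14). Ephb3 stood highest of these 4 receptors per length, at 4.94 ± 0.11 FPKM in sham-operated ECs (SD, n = 2, fragments scaled to transcript length and library size), far below the 82.0 ± 1.7 FPKM of Ephb4. It had 929 and 957 counts against 1155 and 1056. Its rise was small (log2 0.23, SE 0.05, edgeR adjusted p = 6.95e-05) and its adjusted p was 0.020 without post-PNX replicate 1. Ephb6, a receptor whose kinase domain is inactive, rose by 0.47 on the log2 scale (edgeR adjusted p = 2.78e-06).

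Among the ephrin-A ligands, which are anchored to the membrane by a lipid, Efna5 (chromosome 17, 62602957 to 62881317) had 165 normalized counts in both sham-operated libraries and 447 and 435 in the post-PNX ones. This was 2.67-fold (log2 1.42, SE 0.09, edgeR adjusted p = 8.7e-21), with replicates close together in both groups. Efna4 (chromosome 3, 89333393 to 89338028) had 42.6 and 46.9 counts against 85.5 and 99.2, a fold of 2.06 (log2 1.04, SE 0.19, edgeR adjusted p = 3.14e-06). It stood just past 2-fold: its log2 fold change was 0.94 without post-PNX replicate 2 and 0.97 without sham replicate 1. An antisense RNA, 4731419I09Rik, covers 10.5% of its exon bases, and the sources used here do not say whether reads were counted by strand. Tested against a fold of 2 rather than against no change (edgeR glmTreat), Efna5 and Ephb2 passed, with adjusted p of 0.00013 and 0.00157, Ephb1 had 0.0562 and Efna4 had 1. Efna2 rose by 0.61 (edgeR adjusted p = 0.000828), which did not hold without sham replicate 1 (adjusted p = 0.0236) or post-PNX replicate 2 (0.0213). Most fibroblast markers and all measured mesothelial and macrophage markers were higher in the same libraries, and their part in these rises was not tested.

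The abundant ligands went the other way. Efnb1 (chromosome X, 99136061 to 99149022), a transmembrane ligand of EphB receptors, had 11466 and 11666 normalized counts in the sham-operated ECs and 7347 and 7371 after PNX. It fell by 36.4% (log2 -0.65, SE 0.02, edgeR adjusted p = 3.76e-35) and dropped from rank 4 to rank 7 of the 66 genes by level per length. It also fell when scaled to the endothelial genes (log2 -0.44). Efna1 (chromosome 3, 89271730 to 89280951), a ligand of Epha2 that inflammatory signals induce in ECs, had 4430 and 4400 counts against 3496 and 3516 (log2 -0.33, SE 0.03, edgeR adjusted p = 6.06e-16). In level per length the pair differed widely from the genes that rose: in post-PNX ECs Efnb1 stood at 49.0 ± 0.1 FPKM and Efna1 at 51.3 ± 0.2 FPKM, against 1.85 ± 0.04 FPKM for Efna5 and 0.481 ± 0.089 FPKM for Ephb2 (SD, n = 2). The summed normalized counts of the ephrin-A genes thus ran from 4721 to 4733 in the sham-operated and from 4161 to 4188 in the post-PNX libraries. Efna3 (log2 -0.34, edgeR adjusted p = 0.329) and Efnb3 (-0.29, 0.262) did not pass.

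EphA receptors changed little. Of 5 tested, 2 were lower and none higher with scaling to all genes. Epha2 (chromosome 4, 141301221 to 141329384), the endothelial receptor of ephrin-A1 and the highest of the class at 27.1 ± 0.0311 FPKM (SD, n = 2), had 4917 and 4909 counts against 4471 and 4490 (log2 -0.13, SE 0.03, edgeR adjusted p = 1.76e-05). Scaled to the endothelial genes it was 0.08 with an adjusted p of 0.0147, so its direction rests on the scaling. Epha7 had 179 and 143 counts against 127 and 111 (log2 -0.44, SE 0.14, edgeR adjusted p = 0.00373). Its fall was smaller without sham replicate 1 (-0.26, adjusted p = 0.170) and did not pass with endothelial scaling (-0.23, adjusted p = 0.147). Epha1, Epha3 and Epha4 had log2 fold changes from -0.07 to 0.23 and did not pass. Scaled to the endothelial genes they were called higher (0.27, 0.44 and 0.15, edgeR adjusted p = 4.92e-06, 3.48e-05 and 0.000843). The count of higher and lower EphA receptors thus also rests on the scaling.

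**Figure D2:**
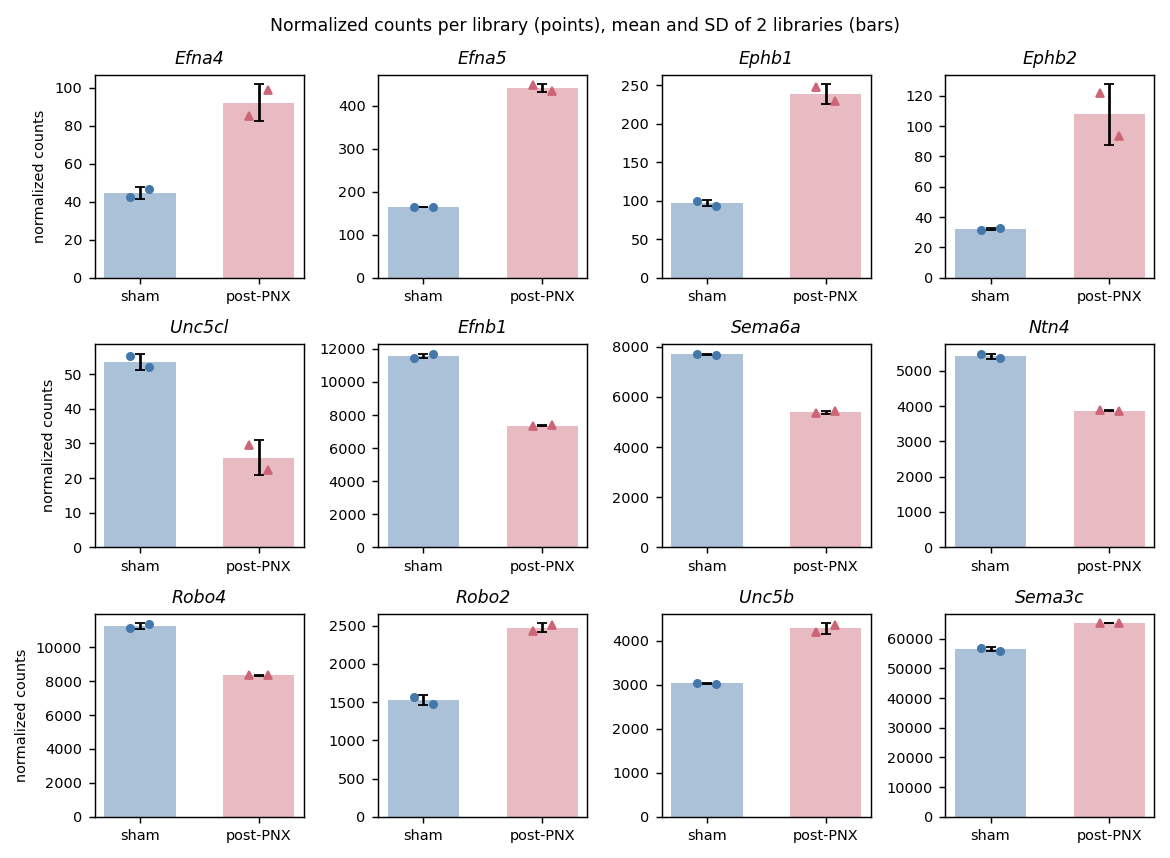
Normalized read counts of 12 genes in sham-operated and post-PNX ECs. Bars are means of 2 libraries, lines the SD, and points the libraries, on linear axes that start at 0. Efna4, Efna5, Ephb1, Ephb2, Robo2, Unc5b and Sema3c sit higher and Unc5cl, Efnb1, Sema6a, Ntn4 and Robo4 lower after PNX, with no overlap between groups. The groups also did not overlap for 40.8% of all genes tested with post-PNX values above and 40.5% below.

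The class 3 semaphorins Sema3c, Sema3f and Sema3g were the most highly expressed of the 66 genes, while the other 4 ranked from 18 to 35 in sham-operated ECs. All 7 passed the test, 3 higher and 4 lower. Sema3c (chromosome 5, 17574816 to 17730268), a secreted ligand of neuropilins and plexin-D1, was first in both groups, at 247 ± 2.9 FPKM in the sham-operated and 286 ± 0.00726 FPKM in the post-PNX ECs (SD, n = 2). It had 56977 and 56039 normalized counts against 65248 and 65251 (log2 0.21, SE 0.02, edgeR adjusted p = 1.39e-17). Sema3f and Sema3g followed close together in the sham-operated ECs, at 158.4 and 161.6 FPKM and at 155 and 158.1 FPKM. After PNX they lay further apart, at 149 ± 1.8 and 118 ± 0.92 FPKM. Sema3g (chromosome 14, 31217873 to 31230352), which ECs secrete, had 26333 and 26855 counts against 20147 and 19926 (log2 -0.41, SE 0.02, edgeR adjusted p = 1.69e-28). The fall of Sema3f was only 0.10 on the log2 scale, and scaling to the endothelial genes turned it into a rise of 0.11 (adjusted p = 1.53e-05).

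Sema3d (chromosome 5, 12383161 to 12588953), a ligand known from the patterning of the pulmonary veins, showed the largest rise of the class. It had 1148 and 1164 normalized counts in the sham-operated and 1724 and 1740 in the post-PNX ECs (log2 0.58, SE 0.04, edgeR adjusted p = 1.29e-18). Sema3e, which binds plexin-D1 without a neuropilin and repels ECs, fell by 0.40 (edgeR adjusted p = 3.24e-15). Sema3b rose by 0.21, and Sema3a fell by 0.21 but was at 0.00 when scaled to the endothelial genes. Sema3d, Sema3a and Sema3e lie in a row on chromosome 5 with gaps of 536 and 422 kb, and their log2 fold changes were 0.58, -0.21 and -0.40. Sema3b and Sema3f, 72.3 kb apart on chromosome 9, had 0.21 and -0.10, the latter with the change of sign already given.

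In semaphorin classes 4 to 7, which are held at the membrane, 6 of 13 genes rose and 4 fell. Of all genes, 29.3% were higher and 27.8% lower. Sema7a (chromosome 9, 57939596 to 57962865), a lipid-anchored semaphorin that also binds integrins, was the highest at 76.8 ± 0.32 FPKM (SD, n = 2) in sham-operated ECs. It had 11558 and 11625 counts against 14910 and 14886 (log2 0.36, SE 0.02, edgeR adjusted p = 3.98e-24), and moved from rank 5 to rank 4 by level per length. Sema6b (chromosome 17, 56123085 to 56140343) had the largest rise of these classes, from 1063 and 1142 to 1598 and 1560 counts (log2 0.52, SE 0.05, edgeR adjusted p = 1.11e-15). Its relative Sema6a (chromosome 18, 47245254 to 47371200), a transmembrane ligand of A-type plexins, had the largest fall. It had 7718 and 7682 counts against 5342 and 5422 and fell by 30.1% (log2 -0.52, SE 0.02, edgeR adjusted p = 9.07e-28). Class 6 thus held the extremes of both directions. The groups did not overlap for either gene, as for 40.8% of all genes with post-PNX values above and 40.5% below. Sema4d, which signals through plexin-B1 and is also abundant on lymphocytes, fell by 0.46 (edgeR adjusted p = 3.04e-14). T cell and B cell markers fell in the same libraries (medians of -0.82 and -0.84), and their part in the fall of Sema4d was not tested. Per the study's methods, isolated ECs were checked by flow cytometry for CD31 and VE-cadherin and for absence of the leukocyte marker CD45, whose gene Ptprc had 11422 to 11665 normalized counts in all 4 libraries. Sema4b, Sema4c, Sema5a and Sema6c rose by 0.17 to 0.33, and Sema4f and Sema6d fell by 0.40 and 0.11. The call of Sema6c was lost on leaving out any of 3 libraries (both sham-operated ones or post-PNX replicate 2, 1 at a time), and that of Sema6d without post-PNX replicate 2 (-0.07, adjusted p = 0.040). Scaled to the endothelial genes, Sema6d was higher instead (0.10, adjusted p = 0.0014) and Sema4f did not pass (-0.19, adjusted p = 0.0505). Sema4a, Sema4g and Sema5b did not pass.

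Of the plexins, 4 of 10 rose and 2 fell, beside 29.3% and 27.8% of all genes. Plxnb2 (chromosome 15, 89155546 to 89182018), a receptor of class 4 semaphorins, rose most among them. It had 7590 and 7592 normalized counts in the sham-operated and 10556 and 10572 in the post-PNX ECs (log2 0.48, SE 0.02, edgeR adjusted p = 3.42e-28), and the libraries of a group were nearly equal. Plxnd1, the endothelial receptor of class 3 semaphorins, rose by 0.30 (edgeR adjusted p = 5.45e-20), from 37.3 ± 0.56 to 46.0 ± 1.1 FPKM (SD, n = 2). Plxna1 (chromosome 6, 89316313 to 89362613), which pairs with neuropilins, was the highest plexin in sham-operated ECs at 47.2 ± 0.71 FPKM. It had 19448 and 19865 counts against 17064 and 17216 (log2 -0.20, SE 0.02, edgeR adjusted p = 7.56e-14), and post-PNX ECs therefore held more Plxnd1 than Plxna1 per length. Plxnb1 also fell by 0.20. Scaled to the endothelial genes, Plxna1 and Plxnb1 were both at 0.01 and did not pass. Plxna2 and Plxnc1 rose by 0.20 and 0.13, the latter with an adjusted p of 0.0102 in DESeq2's Wald test, while Plxna3, Plxna4, Plxna4os1 and Plxnb3 did not pass, and Plxnb3 had the largest of their values (-0.44, edgeR adjusted p = 0.0303).

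**Figure D3:**
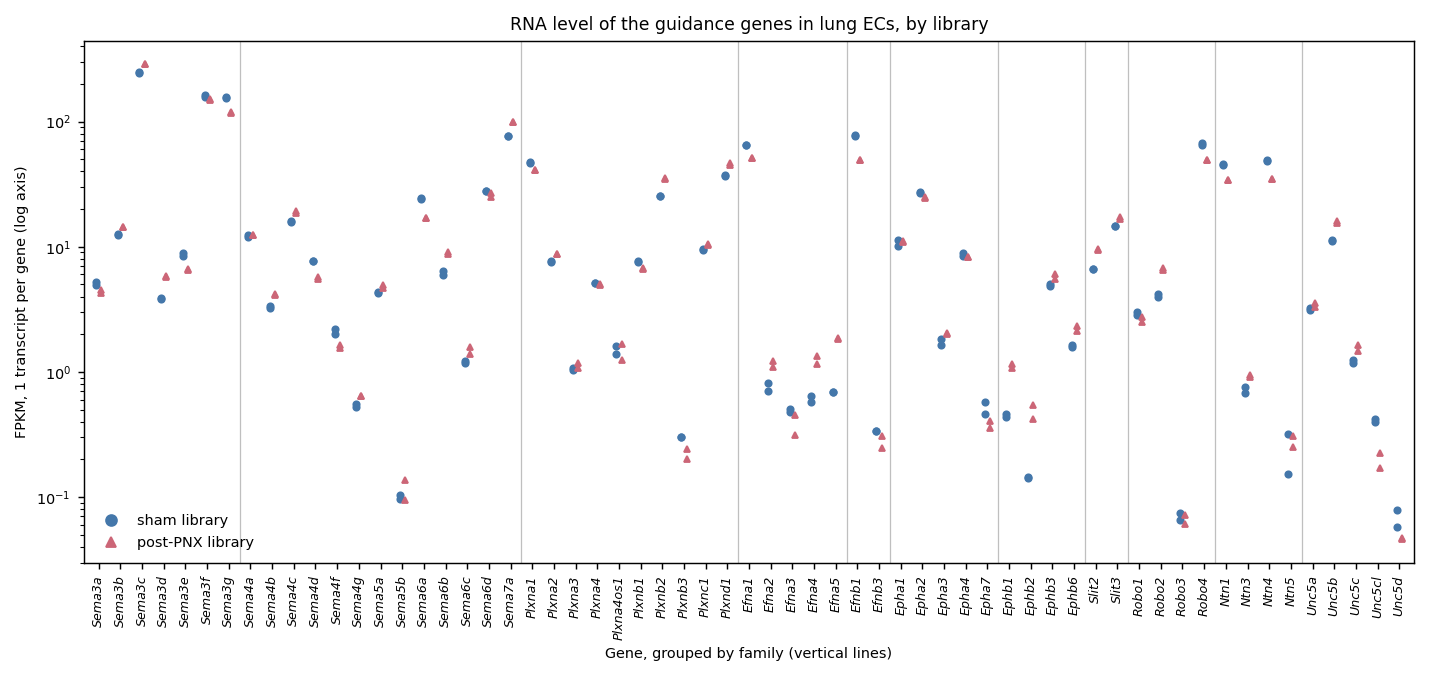
Level of the 61 tested genes in each library as FPKM on a log axis, grouped by family, with sham-operated and post-PNX libraries in different colours. Sema3c is the highest in all 4 libraries, and the genes with the widest gaps between groups, Ephb2, Efna5 and Ephb1, lie below 2 FPKM.

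Both tested Slit ligands rose, and the Robo genes differed in direction. Slit2 (chromosome 5, 47981291 to 48307735), a secreted ligand of Robo1 and Robo2, had 2634 and 2619 normalized counts against 3811 and 3739 (log2 0.52, SE 0.03, edgeR adjusted p = 5.91e-23). Slit3, the higher of the pair at 14.7 ± 0.02 FPKM in sham-operated ECs (SD, n = 2), had 3392 and 3400 counts against 3852 and 3973 (log2 0.20, SE 0.03, edgeR adjusted p = 1.75e-08). Robo4 (chromosome 9, 37401902 to 37414023), the Robo receptor restricted to endothelium, which stabilizes the vessel wall, was far above the other Robo genes. It had 11110 and 11363 counts in the sham-operated and 8381 and 8334 in the post-PNX ECs. It fell by 25.6% (log2 -0.43, SE 0.02, edgeR adjusted p = 5.81e-26). For comparison, the 12 endothelial marker genes ran from -0.54 to 0.17 with a median of -0.22, and Robo4 lay within that range. Robo4 was still lower after scaling to them as a set (-0.22, edgeR adjusted p = 2.17e-09). Robo2 (chromosome 16, 73891976 to 75447443), a Slit receptor best known from the nervous system and kidney, had 1568 and 1478 counts against 2434 and 2515 (log2 0.70, SE 0.04, edgeR adjusted p = 2.27e-24). This was the largest rise among the genes above 1000 counts. Robo1, 844 kb from Robo2 on the same chromosome, was lower by a small margin (-0.16, edgeR adjusted p = 0.00861) that was lost without post-PNX replicate 2 (-0.09, adjusted p = 0.232) and changed sign with endothelial scaling (0.05, adjusted p = 0.379). Robo3 had 13.4 to 16.3 counts and did not pass. Slit2, Slit3 and Robo2 rose in the same libraries in which fibroblast genes had a median log2 fold change of 2.18 (6 of 8 higher). Of that list, Pdgfra was lower (-0.23) and Tcf21 did not pass (0.02). Smooth muscle and pericyte genes had a median of 0.46, and the part of these cell types was not tested. Neuron and Schwann cell genes summed to 226 to 260 counts in the sham-operated and 230 to 258 in the post-PNX libraries.

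The abundant netrins fell and the endothelial netrin receptor rose. Ntn4 (chromosome 10, 93641049 to 93745972), a netrin of basement membranes that binds laminin, had 5465 and 5364 normalized counts in the sham-operated and 3878 and 3865 in the post-PNX ECs. It fell by 28.5% (log2 -0.48, SE 0.03, edgeR adjusted p = 5.3e-24), from 48.7 ± 0.65 to 34.8 ± 0.08 FPKM (SD, n = 2). Ntn1, the founding secreted netrin and next in level at 45.5 ± 0.21 FPKM, fell by 0.41 (edgeR adjusted p = 8.7e-26). Ntn4 and Ntn1 were also lower when scaled to the endothelial genes (-0.27 and -0.20). Ntn3 had 153 and 172 counts against 212 and 207 (log2 0.37, SE 0.12, edgeR adjusted p = 0.00372), a call lost without sham replicate 1 or either post-PNX library. Ntn5, with 14.3 to 29.9 counts, did not pass.

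Unc5b (chromosome 10, 60762594 to 60831581), the netrin receptor of ECs that also binds Robo4, had 3046 and 3029 counts against 4201 and 4367, a fold of 1.41 (log2 0.49, SE 0.03, edgeR adjusted p = 1.52e-22). Unc5c rose by 0.35 (edgeR adjusted p = 5.4e-06), and Unc5a and Unc5d did not pass. Unc5cl (chromosome 17, 48454127 to 48539709) had 55.3 and 52.0 counts against 29.5 and 22.3 (log2 -1.04, SE 0.25, edgeR adjusted p = 0.00024). It was the only gene to fall beyond 2-fold and the least certain of the 5: its adjusted p was 0.0154 without post-PNX replicate 2 and 0.0211 with DESeq2's Wald test. Airway and alveolar epithelial markers fell in the same libraries (medians of -0.90 and -0.62 for airway and type 2 alveolar genes), and their part was not tested.

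The partners through which these families act were counted from a list of 60 genes, of which 56 were tested. After PNX 20 were higher (35.7%) and 21 lower (37.5%), against 29.3% and 27.8% of all genes. Most partners had a mean above 1000 normalized counts. In that range 33.0% of all genes were higher and 36.7% lower, near the shares of the partners. Among 18 tested coreceptors and membrane partners, 7 rose and 6 fell, and among 38 cytoplasmic effectors 13 rose and 15 fell. Flrt2, a membrane protein that binds Unc5 receptors, was the only partner beyond 2-fold. It had 841 and 788 normalized counts against 1774 and 1776 (log2 1.12, edgeR adjusted p = 2.17e-30). The neuropilins, coreceptors of class 3 semaphorins, moved apart. Nrp1, the partner with the most counts, had 46615 and 46473 counts against 34709 and 35023 (log2 -0.42, edgeR adjusted p = 6.08e-31), and Nrp2 rose by 0.44 (edgeR adjusted p = 3.04e-24). Of the netrin receptors outside the Unc5 family, Neo1 (neogenin) rose by 0.33 and Dcc was too low to be tested. Efnb2, the arterial ephrin that pairs with the venous receptor Ephb4, fell by 0.63. Arhgef12, which binds B-type plexins and is the effector with the most counts, had 36294 and 36201 counts against 26498 and 26067 (log2 -0.46, edgeR adjusted p = 2.07e-32). Dpysl3, a collapsin response mediator, had the largest rise of the effectors (0.82, edgeR adjusted p = 1.78e-37).

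**Figure D4:**
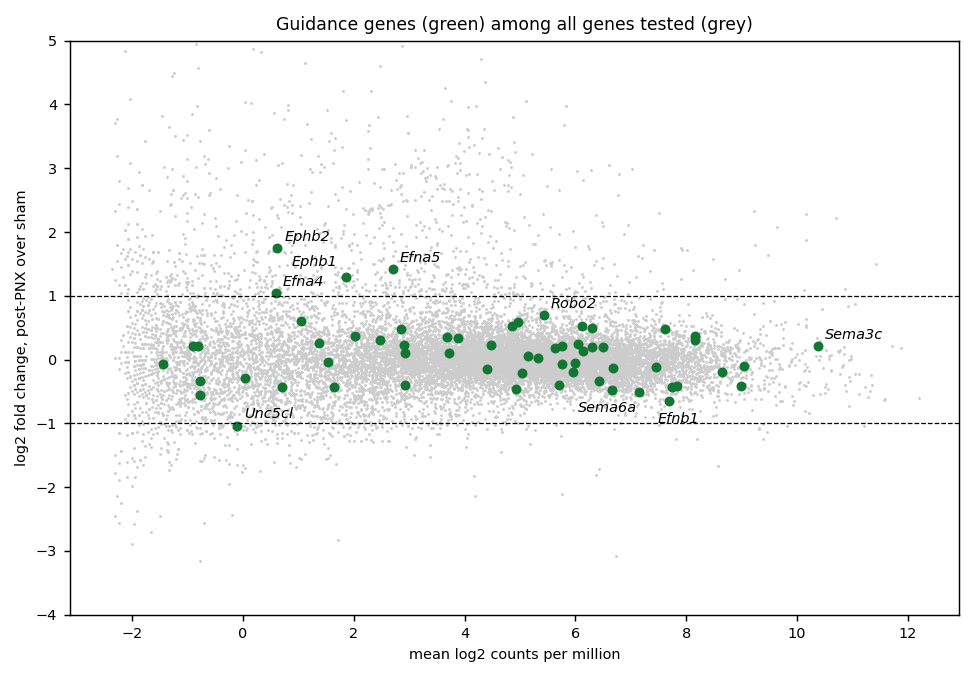
Mean level as log2 CPM (horizontal axis) against log2 fold change, post-PNX over sham-operated ECs (vertical axis), for the family genes (green) among all 16208 genes tested (grey), of which 27 lie outside the plotted range. The family genes beyond 2-fold sit at the low end of the levels and the abundant ones within 1 log2 unit of 0.

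Efna1, Efna3 and Efna4 lie together on chromosome 3, with gaps of 32.9 and 10.5 kb, and had log2 fold changes of -0.33, -0.34 (not passing) and 1.04. Of the 66 genes, 47 had 1 transcript in the files, and the others shared most reads between transcripts: only 4 of 39 further transcripts had under 90% of the counts of the chosen one in sham-operated ECs.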

How the data were processed

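RNA of lung ECs (2 sham-operated and 2 PNX libraries, named by the labels) was sequenced as paired-end reads from a stranded mRNA kit and aligned to mm10 with STAR, per the labels' processing notes and the study's methods. The counting program, annotation release and use of strand are not given in the sources used here. The authors deposited raw read counts per RefSeq transcript with FPKM and TPM for each library. A read was counted for every transcript it overlaps. The deposited FPKM served only to recover transcript lengths and the deposited TPM were not used. FPKM in the text were recomputed from normalized counts, transcript length and the library total over 1 transcript per gene.

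Genes kept by filterByExpr were scaled with TMM factors and tested with the quasi-likelihood F test of edgeR 4.0.16 (R 4.3.3, limma 3.58.1), with Benjamini-Hochberg adjustment. The SE is the absolute log2 fold change over the square root of F. Calls used an adjusted p under 0.01, and beyond 2-fold also a log2 fold change beyond 1. Normalized counts are at the mean effective library size of 46082031. The fit was tested on simulated data. Alternatives were DESeq2 1.42.0 size factors and Wald test, library size alone, scaling to 12 endothelial genes, other filters and thresholds, summed transcripts, a replicate block and leaving out each library.

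Full values are given for genes beyond 2-fold, the highest gene per length in each family, and the largest passing rise and fall in each family among genes averaging 100 normalized counts or more. Other family genes are given more briefly. Partners were named if beyond 2-fold or with the most counts of their list. The other partners (Nrp2, Neo1, Dcc, Efnb2, Ephb4 and Dpysl3) were chosen after their values were seen. The family genes and lists were chosen with earlier results of these data known. Replicates of a group differed by slightly more than sampling noise (mean chi-square 1.76 and 1.52 per gene), so none was taken as a copy of the other. This check cannot tell separate pools of mice from repeated libraries of the same pool, and the pools rest on the study's methods. Adgre1 and Trac of the marker lists were not among the symbols of the files. Gene coordinates are RefSeq gene spans, and exon overlaps are from GENCODE vM21, both on GRCm38. Ntn1 and Sema6a are shown without promoter sequence.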

Additional observations from a re-analysis of the deposited data

How the results depend on the processing

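Each group had only 2 libraries, and the 11 family genes with a mean under 100 normalized counts rest on few reads. The number of family genes higher beyond 2-fold (4) stayed at 4 with the other scalings, filters and tests, but was 2 when tested against a fold of 2 (glmTreat) and 3 to 4 on leaving out 1 library. The single gene lower beyond 2-fold, Unc5cl, was not called beyond 2-fold (0 genes) with scaling to the endothelial genes (log2 -0.83, adjusted p = 0.00395, still lower), with a mean of at least 50 counts, with DESeq2's Wald test or with glmTreat, and 0 to 1 genes were called on leaving out 1 library. Scaling to the endothelial genes gave 36 higher and 10 lower family genes in place of 26 and 19, and 31 higher and 6 lower partners in place of 20 and 21. Under this scaling Epha2 was 0.0784 and Plxna1 0.0142 (log2), both reversed in sign, which follows from the shift of 0.21 in all genes. The Wald test called 21 family genes higher, 16 lower and 12 partners lower, and the cause was not tested. On leaving out 1 library, 23 to 26 family genes were higher and 15 to 19 lower, and 17 to 19 partners were higher and 16 to 20 lower. Replicate numbers were not taken to pair the libraries, since deviations of same-numbered libraries from their group means correlated at only 0.03 over 16208 genes in 2 pairs. With the replicate number as a block, 4 family genes were higher and 1 lower beyond 2-fold, 26 higher and 19 lower at any size, and 21 partners higher and 21 lower. Over the 25 genes given in full, 309 of 324 values under an alternative kept direction and call, 13 lost the call (Epha7, Ephb3, Ntn3 and Unc5cl) and 2 changed sign.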
